A study of Mus musculus with 12 samples.

Results

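The glutathione S-transferases (GST), UDP-glycosyltransferases (UGT) and sulfotransferases (SULT) are the 3 large families of enzymes that couple a polar group to drugs, steroids, bile acids and reactive metabolites. Their mRNA was measured in the outer kidney cortex of mice with and without a HIF2αM3 transgene. Genes were chosen by symbol (Gst with a class letter, Mgst, Ugt or Sult, each followed by a digit), and 60 genes of the 27412 in the deposited table matched. Of these, 54 had at least 10 reads summed over all libraries, namely 24 GST, 19 UGT and 11 SULT genes. Just inside that minimum lay Gstt4 with 11 reads, Sult3a2 with 17 and Ugt2b35 with 20. Just outside it lay Gstm3 with 6 reads and Sult2a4 and Ugt2b1 with 5 each, followed by Sult1e1, Ugt2a2 and Sult2a6. Counts of the 54 members made up 0.890% to 1.02% of all counts in a library. The 9 Ugt1a genes alone held 0.578% of all counts in the table. Their entries hold nearly the same reads, so this share counts 1 locus 9 times.

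All animals were untreated male C57BL/6 mice. The controls were 3 wild-type animals (WT 1, WT 2 and WT 3) and the transgenic group held 3 animals labelled gamma-HIF2alphaM3 TG+ (HIF2aM3 17-51, 17-53 and 17-56). The transgene is driven by a γ-glutamyl transferase (GGT) promoter, known for activity in the proximal tubule, and HIF2αM3 is known as a form of the hypoxia factor HIF2α that escapes oxygen-dependent destruction. The sources used here do not give the age, nor whether the shared prefix 17 marks 1 transgenic line, and if it does, effects of line or insertion site and of HIF2α activity cannot be told apart. Both kidneys of each animal were sequenced separately, giving 12 libraries of 24032148 to 43499743 counts, except for kidney 2 of 17-51 with 4161829, called the shallow library here. The counts of both kidneys were summed per animal, since the animal is the replicate, so that n = 3 per genotype and totals ran from 32392033 to 85018818. Epas1, which encodes HIF2α, lay between 170 and 247 CPM (counts scaled to a common library size) in WT libraries and between 244 and 288 in HIF2aM3 libraries, and the sources used here do not say whether transgene reads fall in its count. Markers of the tubule segments were present in every animal. In bulk RNA, fewer cells of a type and less RNA per cell cannot be told apart.

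GST enzymes attach the tripeptide glutathione to electrophiles. Such conjugates are trimmed by γ-glutamyl transferase, dipeptidases and an N-acetyltransferase to mercapturic acids, a pathway long known in the proximal tubule. UGT1 and UGT2 enzymes sit in the endoplasmic reticulum and transfer glucuronic acid from UDP-glucuronate. SULT enzymes are cytosolic and transfer sulfonate from the donor PAPS to phenols, catecholamines, thyroid hormones and steroids. The conjugates leave the cell through ABC and SLC transporters, many of which the proximal tubule carries.

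No member of the families passed the test between genotypes, and for 33 of 47 the log2 fold change was under 0.25 in size, as for 69.9% of all genes tested. Of the 54 members, 47 had enough reads for the test, the quasi-likelihood test of edgeR with Benjamini-Hochberg adjustment over all genes and a threshold of 0.05. The test called 0 of these 47, against 733 of all 19564 genes tested (3.75%), of which 377 were higher (1.93%) and 356 lower (1.82%) in HIF2aM3 animals. An unadjusted p under 0.05 was found for 9 of the 47 members (19.1%), against 24.9% of all genes tested. DESeq2 called 4 of the 46 members to which it gave an adjusted p (8.70%; Ugt2b5 and Sult1c2 higher, Sult1d1 and Sult1a1 lower), against 10.9% of all such genes. Both shares of the members count the 9 Ugt1a genes separately, though these are 1 measurement. With the locus counted once, 9 of 39 members had an unadjusted p under 0.05, near the share of all genes. The DESeq2 share was not recomputed in this way. Animals of the genotypes did not overlap for 8 of the 47 members (17.0%), while this held for 6254 of all genes tested (32%). The median log2 fold change, given as HIF2aM3 over WT throughout, was 0.07 over the 47 members and 0.00 over all genes tested, whose quartiles were -0.14 and 0.16. The 95% interval of the fold change, not adjusted for the number of genes, lay within 1 log2 unit on either side of 0 for 37 of the 47 members and within 0.5 for 27. A p above the threshold does not show that a level was equal.

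The 9 Ugt1a genes weigh on these counts, because they are 1 measurement. Counted once, the locus left 39 members with a median log2 fold change of -0.02, and 8 of the 39 (20.5%) had no overlap between the animals. Of these 39, 25 had a log2 fold change under 0.25 in size, and the 95% interval lay within 1 log2 unit of 0 for 29 and within 0.5 for 19. By superfamily, the median log2 fold change was -0.05 over 22 GST genes, 0.07 over 9 UGT entries with the locus counted once and -0.34 over 8 SULT genes. The plot of fold changes sets the members beside the middle 50% of all genes.

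**Figure D1:**
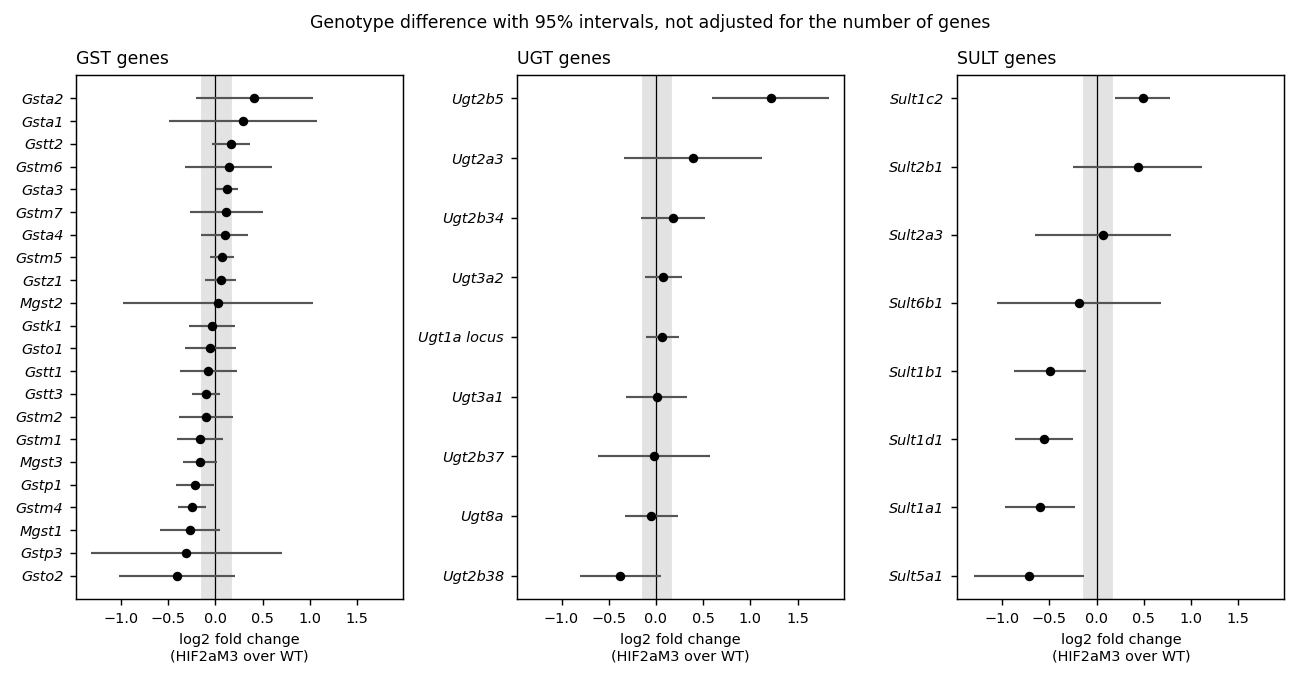
Log2 fold change (HIF2aM3 over WT, x axis) of each tested GST, UGT and SULT gene, with the Ugt1a locus shown once. Points are edgeR estimates over 3 animals per genotype, bars are 95% intervals not adjusted for the number of genes, and the grey band holds the middle 50% of all 19564 genes tested (-0.14 to 0.16). Ugt2b5 lies farthest to the right at 1.21, and Sult5a1 farthest to the left at -0.71.

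Per gene length, the cortex held a few abundant conjugating enzymes and many rare ones. Levels between genes are compared here in the deposited RPKM (reads scaled to library size and gene length), averaged over the 12 libraries. Counting the Ugt1a locus once as Ugt1a9, 5 of 46 entries lay at 100 RPKM or more, 13 between 10 and 100, 10 between 1 and 10 and 18 below 1. The 5 highest were Ugt1a9 at 262 RPKM, Ugt2b38 at 227, Ugt3a2 at 196, Sult1d1 at 157 and Gstz1 at 143. Below them came Gstt2 at 78.4 RPKM and Sult1c2 at 61.8. The place of the locus depends on the entry chosen for it, since Ugt1a6a, with nearly the same reads, was at 41.1 RPKM, below Ugt2b37 at 43.9. The order also depends on the gene lengths behind the deposited RPKM, worked out here from reads and RPKM. These were 5.97 kb for Ugt3a2 and 4.55 kb for Sult1d1, while their longest annotated transcripts have 2329 and 2420 bases. For Gstz1 the length was 1.83 kb, against a transcript of 3035 bases. Each superfamily had at least 1 gene other than Ugt1a at 100 RPKM or more. Among the SULT genes, the next after Sult1d1 and Sult1c2 was Sult1a1 at 1.36 RPKM.

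**Figure D2:**
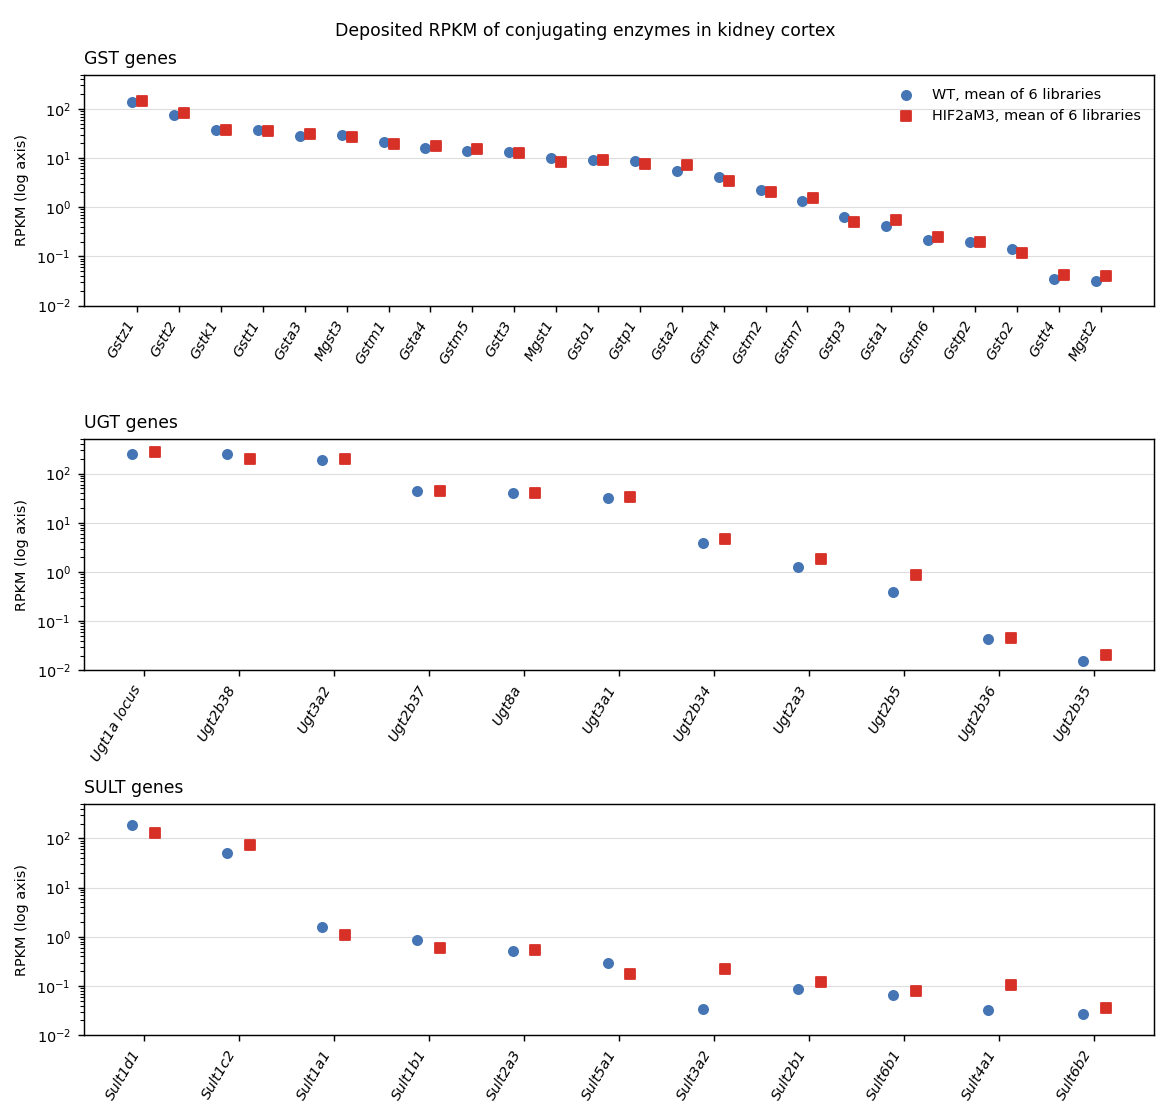
Deposited RPKM on a log axis for the 24 GST, 11 UGT (the Ugt1a locus once, as Ugt1a9) and 11 SULT entries, ordered by level within each panel. Circles are means of the 6 WT libraries and squares means of the 6 HIF2aM3 libraries. Most pairs nearly coincide, and Sult1d1 and Sult1c2 stand far above the other SULT genes.

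Among the sulfotransferases, all 4 SULT1 genes had animals that did not overlap between the genotypes, 3 of them lower and 1 higher in HIF2aM3 animals, and 0 of the 4 passed the threshold of edgeR. The animals did not overlap for 32% of all genes tested either, so separation alone was common in this comparison. Sult1d1, known in the mouse for sulfating catecholamines such as dopamine, was the most abundant SULT gene. It stood at 1050, 729 and 783 CPM in WT 1, 2 and 3 and at 573, 570 and 598 CPM in 17-51, 17-53 and 17-56. All HIF2aM3 animals were thus below the lowest WT animal, and WT 1 was well above the other WT animals. The log2 fold change was -0.56 ± 0.13 (SE; edgeR adjusted p = 0.0629, 95% interval -0.87 to -0.25). Without WT 1 it was -0.39 (adjusted p = 0.0775), and without WT 2 it was -0.67 and passed the threshold (adjusted p = 0.0255). Over all 18 alternatives tried, its adjusted p ran from 0.000698 with DESeq2 to 0.185 without 17-53, and 3 of them called it. These 3 include the 12 libraries as replicates, a setting that takes the kidneys of an animal as independent.

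Sult1c2, a sulfotransferase of phenolic compounds, went the other way. It stood at 85.6, 106 and 123 CPM in WT 1, 2 and 3 and at 141, 146 and 154 CPM in 17-51, 17-53 and 17-56. The 3 HIF2aM3 animals lay close together and above every WT animal. The log2 fold change was 0.49 ± 0.12 (SE; edgeR adjusted p = 0.0726). In the libraries of kidney 1 alone it was 0.54 (edgeR adjusted p = 0.0440). In those of kidney 2 alone it was 0.44 and did not pass (edgeR adjusted p = 0.122). Its adjusted p over the 18 alternatives ran from 0.00172 with the libraries as replicates to 0.187 without 17-53, and 3 called it. The libraries as replicates, which takes the kidneys of an animal as independent, is among these 3.

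The other SULT1 genes were expressed at far lower levels. Sult1a1, the main phenol sulfotransferase, was at 8.55, 10.9 and 7.24 CPM in WT animals and at 5.23, 6.46 and 5.80 CPM in HIF2aM3 animals. Its log2 fold change was -0.60 ± 0.16 (SE; edgeR adjusted p = 0.0770). Exons of Sult1a1 overlap those of Sgf29 on the opposite strand, and the sources used here do not say whether strand was used in counting. Sult1b1, known for sulfating thyroid hormones, was at 7.42, 5.40 and 5.44 CPM in WT animals and at 4.09, 5.01 and 3.76 CPM in HIF2aM3 animals. The gap between WT 2 and 17-53 was small, and the log2 fold change was -0.49 ± 0.17 (SE; edgeR adjusted p = 0.125).

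Sult1d1 supplied most of the SULT counts. The 11 SULT genes together stood at 1154, 855 and 921 CPM in WT animals and at 726, 730 and 764 CPM in HIF2aM3 animals. Sult1d1 made up 87.4% of the summed CPM in WT and 78.4% in HIF2aM3 animals, and Sult1c2 10.7% and 19.9%. The sums did not overlap between the genotypes, as was already so for Sult1d1 itself. The 22 tested and 2 untested GST genes summed to 1017 ± 70.5 CPM (SD, n = 3) in the WT group and 1023 ± 57.2 CPM in the HIF2aM3 group. The UGT genes with the Ugt1a locus counted once summed to 2689 ± 147 and 2662 ± 40.8 CPM, so both of these sums differed by less than the spread between animals.

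The remaining SULT genes were near the limit of detection. Sult5a1 was at 1.64, 1.83 and 1.07 CPM in WT and at 0.738, 1.09 and 0.879 CPM in HIF2aM3 animals, with a log2 fold change of -0.71 ± 0.25 (SE; edgeR adjusted p = 0.138). WT 3 lay just below 17-53, so the groups overlapped. Sult2a3, of the family that sulfates steroids and bile acids, and Sult2b1, which sulfates cholesterol and pregnenolone, had means of 0.555 and 0.323 CPM in WT and 0.572 and 0.445 CPM in HIF2aM3 animals. Sult3a2 had 0 reads in every WT library and 17 in the HIF2aM3 libraries, which were 0.215 CPM in 17-51, 0.116 in 17-53 and 0 in 17-56. Since a gene with 0 WT reads could reach the minimum of 10 reads only through the HIF2aM3 libraries, no fold is given.

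The sequences before the start sites are shown for the 3 members with the smallest adjusted p, Ugt2b5, Sult1d1 and Sult1c2. They come from RefSeq on build GRCm38.p6 and run 5′ to 3′ from 250 bases before to 50 bases after the start, all on the minus strand. Sult1d1 lies at chr5:87568957-87569256, Sult1c2 at chr17:53845909-53846208 and Ugt2b5 at chr5:87140291-87140590. Capitals mark matches to TGACNNNGC, the core of the antioxidant response element, or to ACGTG or GCGTG, cores of the hypoxia response element, searched on both strands.
Sult1d1: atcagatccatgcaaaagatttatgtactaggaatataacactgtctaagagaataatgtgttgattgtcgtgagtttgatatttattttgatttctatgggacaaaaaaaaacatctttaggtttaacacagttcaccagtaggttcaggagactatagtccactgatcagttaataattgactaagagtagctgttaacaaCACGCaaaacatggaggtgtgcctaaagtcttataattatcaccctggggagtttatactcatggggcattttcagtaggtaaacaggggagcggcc
Sult1c2: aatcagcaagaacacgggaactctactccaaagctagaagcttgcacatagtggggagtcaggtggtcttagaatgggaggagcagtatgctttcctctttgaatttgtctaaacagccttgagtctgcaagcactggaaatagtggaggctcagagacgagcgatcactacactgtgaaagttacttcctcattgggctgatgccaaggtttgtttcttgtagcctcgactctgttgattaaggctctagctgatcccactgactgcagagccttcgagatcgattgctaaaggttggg
Ugt2b5: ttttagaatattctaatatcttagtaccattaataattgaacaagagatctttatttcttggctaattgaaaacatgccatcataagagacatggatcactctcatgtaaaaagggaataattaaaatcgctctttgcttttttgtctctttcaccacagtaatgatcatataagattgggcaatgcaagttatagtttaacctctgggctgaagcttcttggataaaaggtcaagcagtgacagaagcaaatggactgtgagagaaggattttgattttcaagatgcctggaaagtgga
The single match is in Sult1d1 and reads CACGC, which is GCGTG on the other strand and is also the core of the xenobiotic response element. GCGTG was found in 15 (25%) of the 60 promoters of 49 members with an entry and in 32.4% of all 32851 promoters. ACGTG was found in 13.3% and 19.6%, and TGACNNNGC in 6.67% and 12.4%. The HNF1 palindrome was in 0 of the 60 and in 0.0609% of all. The members whose window held TGACNNNGC were Gsta3, Gstm5, Gstm7 and Mgst1. These matches describe letters in a window and are not sites of binding.

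**Figure D3:**
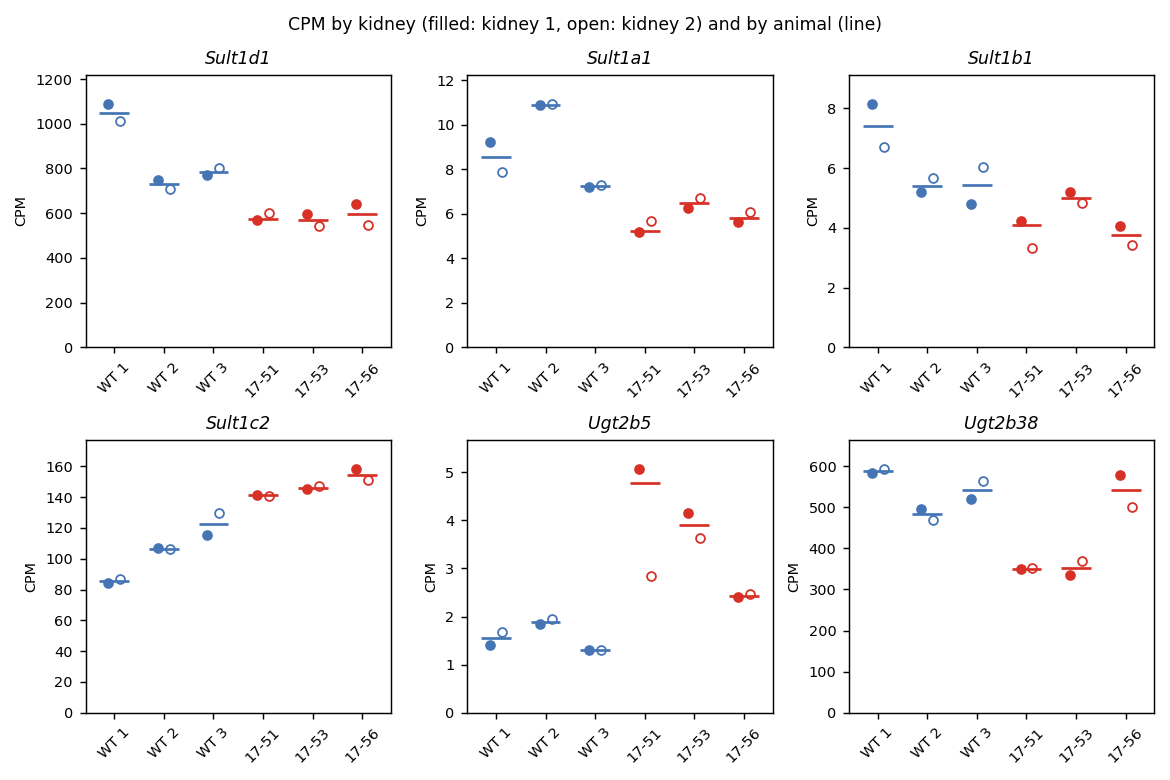
CPM (y axes from 0) of Sult1d1, Sult1a1, Sult1b1, Sult1c2, Ugt2b5 and Ugt2b38 in each kidney and animal. Filled circles are kidney 1, open circles kidney 2 and lines the animal's summed value, in blue for WT and red for HIF2aM3. The 6 libraries of each genotype do not overlap for Sult1d1, Sult1a1, Sult1c2 and Ugt2b5, and they overlap for Sult1b1. The kidneys of an animal are not independent, and the share of all genes with such separated libraries was not computed. For Ugt2b38, 17-56 sits among the WT animals.

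The UGT2 enzymes are known for glucuronidating steroids and bile acids, and none of their genes passed the threshold of edgeR. Ugt2b5 had the smallest adjusted p of all members and a low level, at 1.54, 1.89 and 1.30 CPM in WT 1, 2 and 3 and at 4.77, 3.90 and 2.42 CPM in 17-51, 17-53 and 17-56. Every HIF2aM3 animal was above the highest WT animal, and they spread more widely than the WT animals. The log2 fold change was 1.21 ± 0.26 (SE; edgeR adjusted p = 0.0522). Without 17-56 it was 1.45 and passed the threshold (adjusted p = 0.0298), as it did without WT 2 at 1.36 (adjusted p = 0.0463). Its adjusted p over the 18 alternatives ran from 0.000648 to 0.161, and 5 called it, among them the 12 libraries as replicates. Of the 50-base windows of its transcripts, 41.7% also occur in other genes, most of them in Ugt2b38, so reads of the far more abundant neighbour could be counted here, and this was not tested.

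Ugt2b38 was at 588, 483 and 542 CPM in WT 1, 2 and 3 and at 349, 351 and 542 CPM in 17-51, 17-53 and 17-56. The HIF2aM3 group was split, with 17-51 and 17-53 below every WT animal and 17-56 level with WT 3. The log2 fold change was -0.38 ± 0.18 (SE; edgeR adjusted p = 0.249). Without 17-56 it was -0.62 ± 0.09 and passed the threshold (adjusted p = 0.0446), the lowest adjusted p of 18 alternatives, which ran up to 0.491. Ugt2b37 was at 99.5, 97.8 and 80.9 CPM in WT and at 132, 68.8 and 74.7 CPM in HIF2aM3 animals. Here 17-51 was the highest of all animals, and the log2 fold change of -0.02 ± 0.25 (SE; edgeR adjusted p = 0.973) became -0.38 without it, which did not pass the threshold either.

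The UGT2 genes and 3 SULT1 genes are neighbours in 1 cluster on chromosome 5, in the order Ugt2b34, Ugt2b1, Ugt2b35, Ugt2b36, Ugt2b5, Ugt2b37, Ugt2a3, Ugt2b38, Ugt2a2, Sult1b1, Sult1d1 and Sult1e1 in the GENCODE annotation. Of these 12 genes, 7 were tested, and 3 had a positive and 4 a negative log2 fold change. From Ugt2b34 to Sult1d1 the tested genes had 0.18, 1.21, -0.02, 0.39, -0.38, -0.49 and -0.56. The neighbours thus did not share 1 direction, and the 3 tested genes nearest the SULT1 end had negative values.

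**Figure D4:**
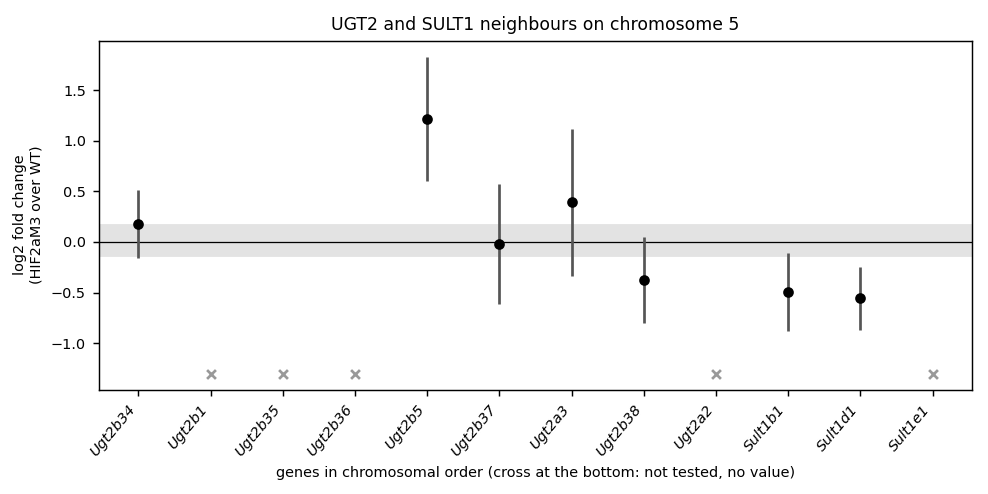
Log2 fold change (HIF2aM3 over WT, y axis) of the UGT2 and SULT1 genes in their order on chromosome 5, with 95% intervals not adjusted for the number of genes. Crosses at the bottom mark the 5 genes that were not tested, and the grey band is the middle 50% of all genes tested. Ugt2b5 stands highest at 1.21, and Ugt2b38, Sult1b1 and Sult1d1 lie below 0.

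The Ugt1a locus encodes bilirubin, phenol and steroid glucuronosyltransferases from alternative first exons that are each joined to the same 4 exons. The deposited table gives 9 Ugt1a genes, and each entry held nearly the same reads. The lowest entry, Ugt1a9, had 225687 reads and the highest, Ugt1a7c, had 253788. Over the 12 libraries the lowest correlation between the log values of any pair of entries was 0.998, as pairs share nearly all their reads. To show what the entries share, the sequences give the joint of each first exon with the shared second exon, 5′ to 3′ in GENCODE M21 transcripts on GRCm38, with the last 25 bases of the own first exon in lower case and the first 35 bases of the shared exon in capitals.
Ugt1a1: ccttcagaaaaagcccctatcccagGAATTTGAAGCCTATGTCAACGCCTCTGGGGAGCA
Ugt1a2: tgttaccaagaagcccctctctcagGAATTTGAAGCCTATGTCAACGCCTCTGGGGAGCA
Ugt1a5: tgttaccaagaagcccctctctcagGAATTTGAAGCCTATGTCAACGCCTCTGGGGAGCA
Ugt1a6a: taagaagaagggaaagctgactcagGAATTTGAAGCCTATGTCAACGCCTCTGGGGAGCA
Ugt1a6b: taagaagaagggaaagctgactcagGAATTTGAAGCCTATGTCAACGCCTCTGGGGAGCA
Ugt1a7c: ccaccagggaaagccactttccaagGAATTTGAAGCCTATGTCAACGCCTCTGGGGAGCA
Ugt1a8: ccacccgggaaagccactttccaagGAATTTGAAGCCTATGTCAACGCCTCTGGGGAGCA
Ugt1a9: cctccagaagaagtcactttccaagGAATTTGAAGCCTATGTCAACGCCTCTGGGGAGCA
Ugt1a10: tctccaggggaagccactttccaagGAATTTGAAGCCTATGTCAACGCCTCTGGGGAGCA
After the joint, 1311 bases are identical in all 9 transcripts, 735 of them coding. The lower-case ends fall into 7 distinct sequences, Ugt1a2 sharing one with Ugt1a5 and Ugt1a6a sharing one with Ugt1a6b.

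For all entries but Ugt1a7c, the reads held beyond the lowest entry were few. Ugt1a6a, of the phenol-conjugating pair, had 2330 reads more than Ugt1a9, or 1.03%, and Ugt1a6b had 409. Ugt1a1, the bilirubin-conjugating enzyme, had 298 more, Ugt1a2 288, Ugt1a8 210, Ugt1a10 14 and Ugt1a5 1. Ugt1a7c stood apart with 28101 more reads (12.5%), and its transcript also runs 1005 bases beyond the shared stretch, so these reads cannot be assigned to its first exon. Which first exon the cortex uses cannot be read from these entries. Their deposited RPKM ran from 41.1 for Ugt1a6a to 262 for Ugt1a9, although the reads were nearly the same. The gene lengths worked out from these same reads and RPKM were 15.6 kb and 2.42 kb, so they are no separate evidence. The longest annotated transcript of Ugt1a6a has 3342 bases.

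Taken as 1 locus, Ugt1a was at 638, 608 and 615 CPM in WT 1, 2 and 3 and at 696, 663 and 593 CPM in 17-51, 17-53 and 17-56 (entry Ugt1a9). HIF2aM3 animals lay both above and below the WT animals. The log2 fold change was 0.07 ± 0.08 (SE; edgeR adjusted p = 0.613), with a 95% interval of -0.11 to 0.24. The entries together took 0.578% of all counts in the table.

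**Figure D5:**
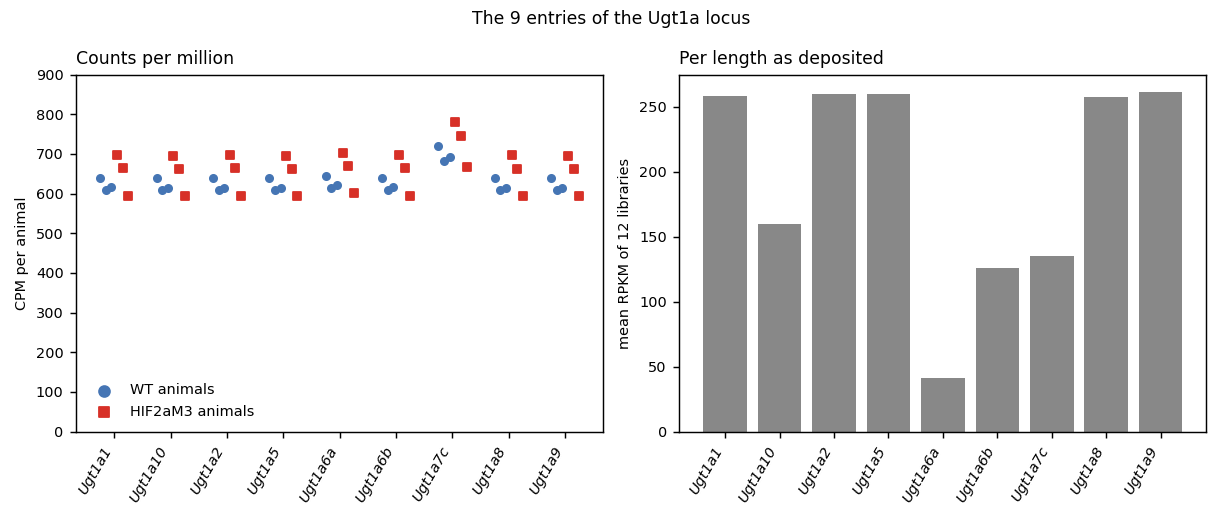
The 9 entries of the Ugt1a locus, with CPM per animal on the left (circles WT, squares HIF2aM3) and the mean deposited RPKM over 12 libraries on the right. The CPM are nearly the same in all entries apart from Ugt1a7c, which is higher, while the RPKM range from 41.1 to 262.

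The UGT3 and UGT8 genes, whose enzymes use other sugars than glucuronic acid, were abundant and nearly level. Ugt3a2 was at 1137, 1038 and 1255 CPM in WT animals and at 1236, 1217 and 1171 CPM in HIF2aM3 animals, with a log2 fold change of 0.08 ± 0.08 (SE; edgeR adjusted p = 0.599). Ugt3a1 was at 88.4, 79.8 and 118 CPM in WT animals and at 95.8, 94.1 and 97.4 CPM in HIF2aM3 animals. The HIF2aM3 animals lay within the WT range of Ugt3a1. Ugt8a, the ceramide galactosyltransferase of sulfatide synthesis, had means of 163 ± 18.4 (SD, n = 3) and 158 ± 20.8 CPM.

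The log2 fold changes of the 22 tested GST genes lay between -0.41 and 0.41. Gstz1, which isomerises maleylacetoacetate in tyrosine breakdown and was the most abundant GST gene, was at 243, 269 and 262 CPM in WT animals and at 285, 269 and 251 CPM in HIF2aM3 animals. Its log2 fold change was 0.06 ± 0.07 (SE; edgeR adjusted p = 0.658), with a 95% interval of -0.11 to 0.22. Exons of Gstz1 overlap those of Pomt2 on the opposite strand. In the theta class, Gstt2 was at 103, 127 and 107 CPM in WT and at 133, 121 and 125 CPM in HIF2aM3 animals, and Gstt1 had means of 107 ± 9.98 (SD, n = 3) and 102 ± 16.7 CPM.

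All 4 alpha class genes, whose enzymes conjugate lipid peroxidation products, had a positive log2 fold change, from 0.10 to 0.41, and none passed the test. Gsta3 was at 88.0, 89.6 and 84.1 CPM in WT and at 97.5, 94.8 and 92.9 CPM in HIF2aM3 animals. The groups did not overlap, though the difference was small, at 0.12 ± 0.05 (SE; edgeR adjusted p = 0.180). Gsta4, known for conjugating 4-hydroxynonenal, had means of 17.4 ± 2.63 (SD, n = 3) and 18.6 ± 0.575 CPM. Gsta1 and Gsta2 share 89.7% and 64.2% of their 50-base windows with other genes, so their counts are uncertain.

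In the mu class, 3 of 6 genes had a positive and 3 a negative log2 fold change. Gstm4 was at 10.96, 11.54 and 11.06 CPM in WT and at 9.32, 9.57 and 9.37 CPM in HIF2aM3 animals. The animals of each genotype were tightly grouped and did not overlap, with a log2 fold change of -0.25 ± 0.07 (SE; edgeR adjusted p = 0.0770). Gstm1 and Gstm5, the most abundant of the class per length, had means of 65.4 ± 9.15 and 77.0 ± 1.15 CPM in WT and 58.5 ± 4.03 and 81.0 ± 4.15 CPM in HIF2aM3 animals (SD, n = 3). Exons of Gstm5 overlap another gene on the opposite strand.

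Gstp1, the pi class enzyme, was at 15.1, 14.4 and 13.2 CPM in WT and at 12.7, 12.9 and 11.1 CPM in HIF2aM3 animals. The groups were separated by a small gap, and the log2 fold change was -0.22 ± 0.09 (SE; edgeR adjusted p = 0.177). Gstp1 shares 62.3% of its windows with other genes, chiefly Gstp2. Gstp3 was at 0.515, 0.645 and 0.186 CPM in WT and at 0.400, 0.314 and 0.387 CPM in HIF2aM3 animals. Gstk1, found in mitochondria and peroxisomes, Gsto1, which reduces dehydroascorbate, and the rare Gsto2 had log2 fold changes of -0.04, -0.06 and -0.41. Among the membrane-bound enzymes, Mgst1 had means of 63.3 ± 12.2 (SD, n = 3) and 52.7 ± 2.55 CPM, and Mgst3 of 36.2 ± 2.88 and 32.4 ± 2.23 CPM. None of these passed the test.

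The kidneys of an animal were compared as well, kidney 2 against kidney 1 with the animal as a block. The test of edgeR called 0 of 45 members at an adjusted p under 0.05, against 17 of 18164 genes (0.0936%). An unadjusted p under 0.05 was found for 5 of the 45 members, and the share of all genes at that level was not computed. The lowest adjusted p among members was 0.149 for Gstm1, with a log2 difference of -0.14 ± 0.03 (SE). The interaction of kidney and genotype called 0 of the 45 members, with 2 at an unadjusted p under 0.05. Counts over all genes were not taken for the interaction, so these 2 have no share to be set against.

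The authors' deposited table gives q-values of a test on the libraries, which takes both kidneys of an animal as separate samples. By these, 5 of 54 members were under 0.05, against 3445 of all 27412 genes (12.6%). In the authors' deposited table these were Sult1d1, Sult1a1 and Gstm4, lower, and Sult1c2 and Ugt2b5, higher in HIF2aM3.

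Of the genes that supply the cofactors, handle the conjugates or regulate such enzymes, 7 of 107 tested outside the members passed the edgeR test, 1 higher and 6 lower, beside 3.75% of all genes tested (1.93% higher and 1.82% lower). For glutathione synthesis and recycling, 1 of 22 tested genes passed. Oplah, which opens 5-oxoproline to glutamate, fell from 203 ± 4.06 to 168 ± 7.31 CPM (SD, n = 3), a log2 fold change of -0.27 ± 0.06 (SE; edgeR adjusted p = 0.0432), and its exons overlap Exosc4 and Smpd5 on the opposite strand. For mercapturic acid formation after the GST step, 1 of 8 passed. Nat8, which acetylates cysteine conjugates in the last step, fell from 220 ± 19.8 to 171 ± 5.92 CPM, with a log2 fold change of -0.36 ± 0.07 (SE; edgeR adjusted p = 0.0451). Ggt1, the gene of γ-glutamyl transferase itself, had means of 1165 ± 73.4 and 1225 ± 82.8 CPM (SD, n = 3), an overlap that did not pass the test.

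For UDP-glucuronate supply and turnover, 0 of 11 tested genes passed by edgeR. Ugdh, which makes UDP-glucuronate, had the smallest p, with means of 81.3 ± 3.73 and 96.2 ± 2.98 CPM (SD, n = 3) and a log2 fold change of 0.24 ± 0.05 (SE; edgeR adjusted p = 0.0565). For sulfate uptake and PAPS synthesis and turnover, 1 of 19 passed. Tst, the mitochondrial thiosulfate sulfurtransferase rhodanese, fell from 90.9 ± 9.58 to 65.1 ± 4.48 CPM, with a log2 fold change of -0.48 ± 0.09 (SE; edgeR adjusted p = 0.0360). It handles sulfide and cyanide and does not make PAPS.

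Among 24 transporters of conjugates tested, 2 passed, both lower. Slco3a1, an uptake carrier of organic anions, fell from 305 ± 49.8 to 203 ± 6.78 CPM (SD, n = 3; log2 fold change -0.58 ± 0.12 SE, edgeR adjusted p = 0.0431). Slc22a6, the basolateral organic anion transporter OAT1, fell from 1666 ± 226 to 1176 ± 39.9 CPM (log2 fold change -0.50 ± 0.11 SE, edgeR adjusted p = 0.0483). Among 26 xenobiotic and antioxidant transcription factors and partners, 1 rose and 1 fell. Nr3c1, the glucocorticoid receptor, rose from 134 ± 10.8 to 188 ± 7.64 CPM (log2 fold change 0.49 ± 0.07 SE, edgeR adjusted p = 0.0234). Nr1h3, the oxysterol receptor LXRα, fell from 44.95 ± 3.85 to 32.3 ± 1.09 CPM (log2 fold change -0.48 ± 0.07 SE, edgeR adjusted p = 0.0235), and its exons overlap another gene on the same strand. With library size alone as scaling, 3 of these list genes were higher and 3 lower. The 7 calls became 13 without WT 2, 1 without WT 1, 2 without WT 3, 2 without 17-56 and 0 without 17-51 or without 17-53.

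Some markers of cell types moved between the genotypes beside these values. Among all genes tested, edgeR called 3.75%, and the animals did not overlap for 32%. Counts of marker calls were not taken under the alternatives. Of 10 collecting duct markers, 4 fell, and their summed level was 780 to 802 CPM in WT animals but 528 to 652 CPM in HIF2aM3 animals. Of 8 endothelial markers, 3 rose, with sums of 365 to 552 CPM in WT and 585 to 593 CPM in HIF2aM3 animals. Of 10 markers of the first and second proximal tubule segments, 1 rose and 1 fell, with sums of 15341 to 16868 CPM in WT and 14180 to 15516 CPM in HIF2aM3 animals. The marker that fell was Slc22a6, the same call as among the transporters above. Of 10 markers of the third segment 0 passed, with sums of 4717 to 6197 and 5345 to 5721 CPM, and 10 markers of the loop and distal convoluted tubule gave 0 calls by edgeR as well, with sums of 5295 to 6786 and 4737 to 5162 CPM. The 8 leukocyte markers gave 1 higher call with sums of 64.3 to 124 and 117 to 152 CPM, and the 7 fibroblast and matrix markers gave 0 with sums of 123 to 234 and 228 to 353 CPM. The 13 liver and 3 adrenal cortex markers tested gave 0 calls, and without Cyp2e1, which kidney also expresses, the liver markers summed to 99.1 to 133 CPM in WT and 103 to 139 CPM in HIF2aM3 animals. Their part in the values of the conjugating enzymes was not tested.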

How the data were processed

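Gene-level values of 12 kidney cortex libraries were used as deposited. RNA was taken from thin outer cortex slices and prepared with an Illumina TruSeq kit, per the labels' protocols, and the genome build was mm9, per the notes of the submitters on processing. Aligner, counter, annotation and use of strand: not given in the sources used here. Read counts of each gene in each library were deposited raw, per the file headers. The deposited RPKM and log2 RPKM hold about 1 read that the authors added to each count, a property read from the values. The deposited fold change (ratio) and log2 fold change compare the group means, per the file headers. The headers name a t-test and a Fisher exact test for the deposited p-values and q-values. Of these, only the q-values of the t-test were used. The deposited t-statistic is a score that was not used.

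Counts of the kidneys of an animal were summed and tested with edgeR 4.0.16 in R 4.3.3 (filterByExpr, TMM factors, robust quasi-likelihood test, two-sided, Benjamini-Hochberg threshold 0.05 over all genes tested). SE is |log2 fold change| divided by the root of F, and CPM are TMM-scaled. Depth limits the precision of the rare genes, and p-values set the genotype difference against the spread between these animals as the test estimates it. Symbols came from GENCODE M21, which matched 24630 of 27412 IDs, the 2782 others holding 1.18% of counts. Shared sequence was measured as identical 50-base windows in transcripts of other genes.

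The members and lists were chosen with earlier results of these data known. Named members were those past the threshold, the 2 most abundant of each family by RPKM and the 3 nearest the minimum of 10 reads on each side. From each list came up to 3 genes past the threshold, or the 1 with the smallest p. Ugt2b5, Sult1a1, Sult1b1, Gstm4, Gsta1, Gsta2, Sult4a1, Ugt2b34, Ugt2a3, Ggt1, Cyp2e1 and Slc22a8 were named after their values were seen. Alternatives covered the 12 libraries as replicates, each kidney alone, DESeq2 1.42.0, library size alone, RLE factors, no filter beyond 10 reads, a mean of 1 CPM, limma 3.58.1 on log2(RPKM + 1) and log2(RPKM + 0.1), no shallow library and each animal left out. Keeping 1 Ugt1a entry was chosen after seeing the data. The tests were tested on simulated data.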

Additional observations from a re-analysis of the deposited data

Results flagged for a closer look

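Among 62 sets of 6 libraries (the 31 members named, in each genotype), 3 had 1 library far from the others, where chance alone gives about 1 in 20 sets and the kidneys of an animal are not independent. Gstz1 was at 228.4 CPM in WT 1 kidney 2, while the other WT libraries lay between 259.0 and 270.7 CPM. Gstz1 was also at 223.5 CPM in HIF2aM3 17-56 kidney 2, while the other HIF2aM3 libraries lay between 268.1 and 288.0 CPM. Sult3a2 was at 0.474 CPM in HIF2aM3 17-51 kidney 2, the shallow library, while the other HIF2aM3 libraries lay between 0 and 0.177 CPM. All reads of Sult3a2 over the 12 libraries numbered 17, so that value rests on very few.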

How the results depend on the processing

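By edgeR or limma, 0 members were called with RLE factors, library size alone, no filter, a mean of 1 CPM, RPKM with either pseudocount, kidney 2 alone, no shallow library and 1 Ugt1a entry. With the 12 libraries as replicates 7 members passed, with DESeq2 4, with kidney 1 alone 2, and with each animal left out in turn 0 to 3, namely 3 without WT 2 (Gsta2, Ugt2b5 and Sult1d1) and 2 without 17-56 (Ugt2b5 and Ugt2b38). The 733 calls over all genes became 4829 with 12 libraries, 2058 with DESeq2, 337 with kidney 2 alone, 114 and 140 with limma on RPKM plus 1 and plus 0.1, and 11 to 1549 with an animal left out (115, 1549 and 187 without WT 1, 2 and 3, and 42, 11 and 196 without 17-51, 17-53 and 17-56). The 7 calls among the cofactor, transport and factor genes became 34 with 12 libraries, 18 with DESeq2, 1 with limma on either pseudocount, 4 without the shallow library and 0 to 13 with an animal left out. Of 535 values of 30 named members under the alternatives, 496 kept their direction and side of the threshold, 17 in 8 members passed it only there, and 22 in 9 members changed sign, in members whose adjusted p was 0.658 or more. With each animal left out in turn, the log2 fold changes that turned ran from -0.12 to 0.060 for Gstk1, -0.20 to 0.019 for Gsto1, -0.69 to 0.075 for Gstp3, -0.17 to 0.054 for Gstt1, -0.23 to 0.28 for Sult2a3, -0.38 to 0.15 for Ugt2b37, -0.12 to 0.18 for Ugt3a1 and -0.14 to 0.046 for Ugt8a. With kidney 2 alone they were -0.0017 for Gstz1, -0.056 for Sult2a3 and -0.075 for Ugt3a1, with kidney 1 alone 0.0023 for Ugt8a, and with 12 libraries -0.0058 for Ugt3a1. The cause of these changes was not tested. The comparison of kidneys gave 0 members with no animal block and without 17-51. No paired analysis was possible because the genotypes share no replicate numbers.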

Other observations

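Members differed in how much they varied between WT animals. Over the 32 members with a WT mean of at least 1 CPM, the Ugt1a locus counted once, the median coefficient of variation was 11.9% in WT and 8.11% in HIF2aM3 animals. Gsta2, an alpha class GST, had the widest spread in WT at 38.1%, against 13.9% in HIF2aM3 animals, with 14.8, 23.1 and 10.9 CPM in WT 1, 2 and 3 and 25.01, 21.25 and 19.03 CPM in 17-51, 17-53 and 17-56. Ugt3a1 had 20.9% in WT and 1.75% in HIF2aM3 animals. These differences in spread were not tested.

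HIF2aM3 17-56 stood apart from the other HIF2aM3 animals in some genes of more than 1 family, picked after their values were seen. Other genes singled out another animal, as Ugt2b37 did with 132 CPM in 17-51 against 68.8 in 17-53 and 74.7 in 17-56. Ugt2b38 was at 542 CPM there against 349 and 351 in 17-51 and 17-53, and Ugt2a3 at 2.13 CPM against 4.49 and 5.29. Cyp2e1, a cytochrome P450, was at 2511 CPM in 17-56 against 1790 and 1759, and Slc22a8, the organic anion transporter OAT3, at 411 CPM against 687 and 632. Sult4a1, known from the brain, was at 0.562 CPM in 17-56 and between 0.0594 and 0.175 CPM in all other animals, from 67 reads in all.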
